A study of Mus musculus with 6 samples.

Results

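The ATP-binding cassette (ABC) genes of DR4 mouse embryonic fibroblasts were taken as all probe sets whose platform annotation gave a single gene symbol beginning with Abc, a subfamily letter from a to g and a number. A probe set is a group of short oligonucleotides that measures a transcript on an Affymetrix array. The rule gave 92 of 45137 probe sets and 45 of 18193 genes with 1 symbol. No measured value entered it, but the members and gene lists were chosen with earlier results of these data known. On the MOE430A array it found 65 of 22626 probe sets, for 36 genes, and on MOE430B 27 of 22511, for 18 genes, with 9 genes on both. Both array types were hybridized with RNA of 3 replicates, which makes 6 samples. The labels describe fibroblasts of day 15 embryos that serve as feeder cells and were profiled as a control for 3 lines of embryonic stem cells (J1, R1 and V6.5), none of which was analysed here. The medium of all replicates was D-MEM, with LIF and 15% serum, and the dishes were coated with 0.1% gelatin. In the labels' notation, 12x10e6 cells gave the RNA of replicate 1 (2.4 ug/ul), while replicates 2 and 3 took 3x10e6 cells each (3.0 ug/ul). The labels give no genotype. DR4 mice are known as a strain that carries drug resistance genes, so that feeder cells survive selection of stem cell clones. The labels do not say whether the cells had been stopped from dividing, nor whether the replicates were separate cultures, so the spread behind each p-value may be technical.

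ABC proteins bind and split ATP in a conserved pair of nucleotide-binding domains, and most use the energy to move a substrate across a membrane. Subfamilies A and G move mainly lipids and sterols, B and C export drugs, conjugates and peptides or work in mitochondria and lysosomes, and D carries fatty acids and vitamin derivatives across organelle membranes. Subfamilies E and F lack membrane domains and act on ribosomes and translation instead. In fibroblasts, cholesterol efflux through Abca1 is the family's best known activity, and the multidrug exporters are known for protecting cells from toxins.

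The deposited values were linear MAS5 signal intensities, and each array's median signal served as its floor (685 to 734 on MOE430A, 849 to 917 on MOE430B). A probe set was counted as above the floor if it lay above it on all 3 arrays of its type. A median floor does not measure whether a gene is expressed, and probe sets differ in brightness, so a difference in signal between probe sets is no difference in RNA level, and signal served only to choose which genes are named. Among the bacterial tryptophan controls, which have no target in mouse RNA, the highest lay at 614 to 786 on MOE430A but at 1989 to 2348 on MOE430B. On MOE430B a member can therefore lie above the floor and still be dimmer than this control. The labelled cell type showed in its markers: 11 of 11 fibroblast markers were above the floor, and 0 of 6 pluripotent stem cell and 0 of 6 hepatocyte markers were. Macrophage markers were above it in 3 of 8 cases (Lyz2, Csf1r and Cd14, but not Ptprc or Adgre1), endothelial markers in 2 of 7 and erythroid markers in 1 of 4. Over all genes the share above the floor was 54.7%. The summed macrophage signal on MOE430A was 9143 to 10112 over 10 probe sets. The part of other cells in the ABC signals was not tested, and in RNA of whole cultures fewer cells and less RNA per cell cannot be told apart.

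Fewer ABC probe sets lay above the floor than the share over the whole array, as counts without a test. They were 20 of 65 on MOE430A (30.8%, against 42.4% of all probe sets) and 6 of 27 on MOE430B (22.2%, against 37.2%). By genes, 19 of 45 had at least 1 probe set above the floor (42.2%, against 54.7% of all genes). These were Abca1, Abca3, Abca5, Abca9, Abca12, Abcb1b, Abcb4, Abcb8, Abcc1, Abcc5, Abcd2, Abcd3, Abce1, Abcf1, Abcf2, Abcf3, Abcg2, Abcg4 and Abcg8. Of the 65 MOE430A probe sets, 33 were above the floor on no array (50.8%, against 42.5% of all), with means of 32.1 to 594. Another 12 were above it on 1 or 2 arrays (18.5%, against 15.1%). The same counts on MOE430B were 11 (40.7%, against 37.2%) and 10 (37%, against 25.6%). The count depends on the floor. With the 75th percentile it was 8 on MOE430A (12.3%, against 20.7% of all) and 2 on MOE430B (7.41%, against 17.7%). With a fixed signal of 200 it was 40 (61.5%, against 68%) and 18 (66.7%, against 70%).

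**Figure D1:**
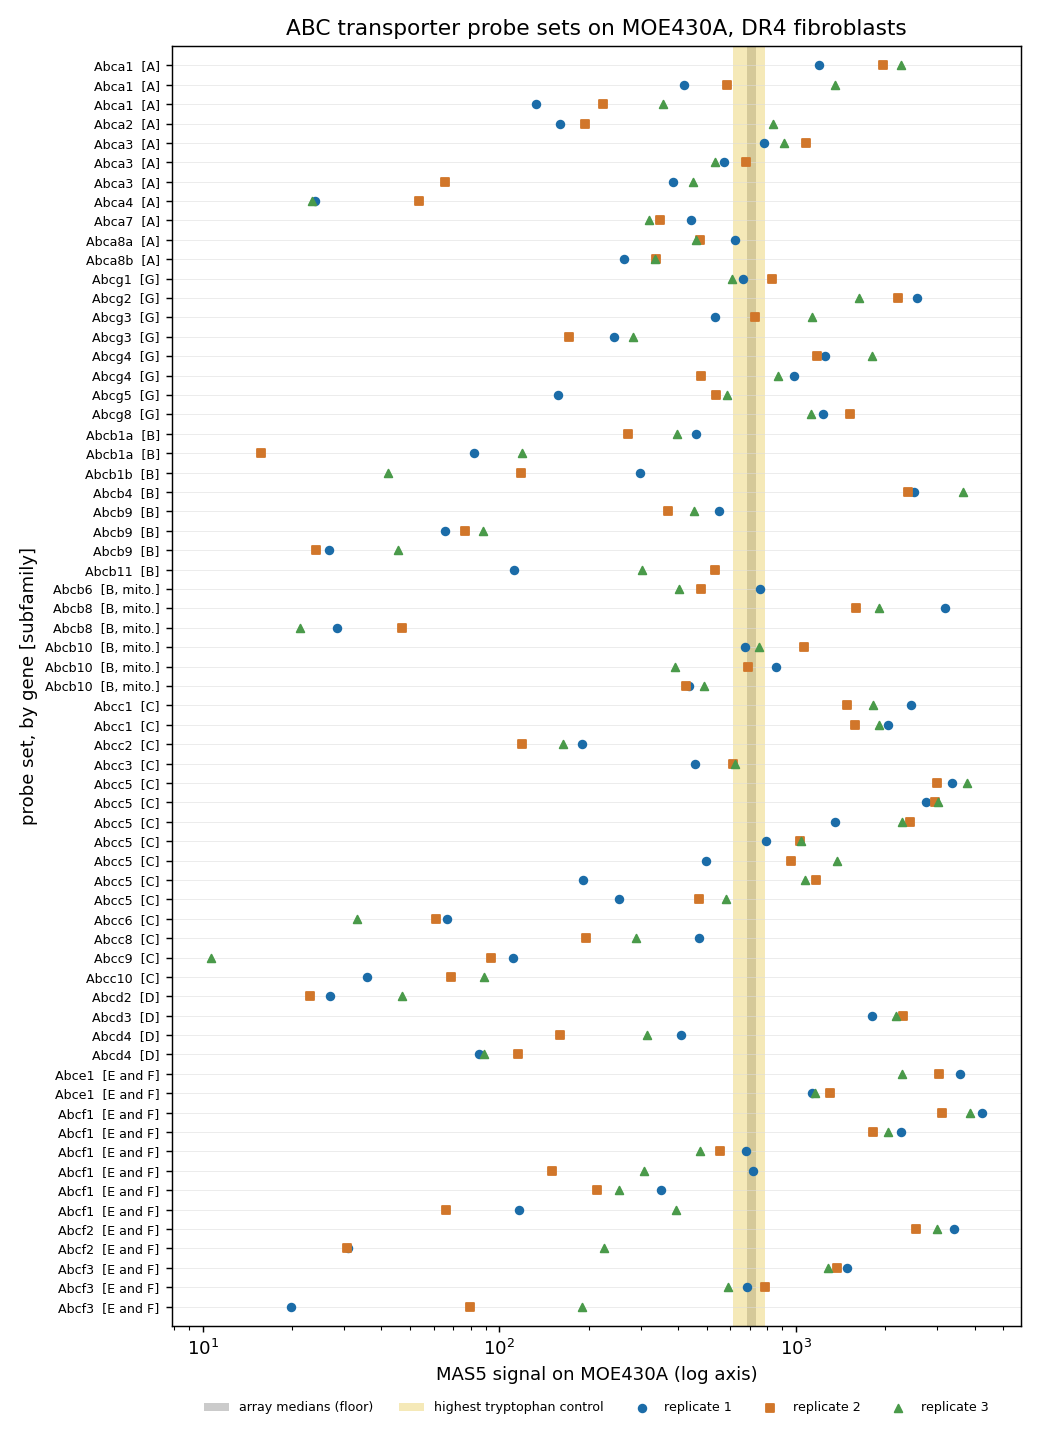
Signal of the 65 ABC transporter probe sets on the 3 MOE430A arrays (log axis), a row per probe set, ordered by subfamily and, within a gene, from bright to dim. The grey band spans the array medians used as floor and the yellow band the highest tryptophan control; 20 probe sets lie to the right of the floor on all 3 arrays, and probe sets of 1 gene such as Abcc5 or Abcf1 lie on both sides of it.

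The lipid exporters of subfamily A were above the floor in 5 of 14 measured genes, against 54.7% of all genes. Abca1 hands cholesterol and phospholipid to apolipoprotein A-I at the cell surface. Its brightest probe set had signals of 1199.8, 1962 and 2262 in replicates 1, 2 and 3 (1808 ± 547, SD, n = 3, as for all errors below). Its second had 418, 585 and 1357, and its last 133, 223 and 356. Replicate 1 was the lowest and replicate 3 the highest on all 3 Abca1 probe sets, and 1 of the 3 was above the floor. Of all 9600 MOE430A probe sets above the floor, replicate 1 was the lowest on 3422 and replicate 3 the highest on 3438. Probe sets of 1 gene share the same 3 arrays, so such counts, here and below, are not independent. For Abca3 and Abcb10 each replicate was the lowest on 1 of 3 probe sets. Abca3, which loads surfactant lipid into lamellar bodies of lung cells, had 778, 1082 and 909 on its brightest probe set, close above the floor. The other 2 Abca3 probe sets, at 594 ± 75.5 and 301 ± 206, were not above it on any array.

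The remaining subfamily A genes above the floor were measured on MOE430B. Abca5, a protein of lysosomes and late endosomes, had 1938, 3215 and 2792. Abca9 had 2376, 1982 and 1534 on 1 probe set and 1515, 2203 and 1392 on the other. Both Abca9 probe sets were above the floor, and replicate 3 was the lowest on each. Abca12, known for lipid transport in the skin barrier, had 2601, 3292 and 2689, and was above the highest tryptophan control on all 3 arrays, which Abca5 and Abca9 were not. Below the floor on at least 1 array were Abca6 (778, 1384 and 952), Abca13 (675 ± 364 on its brighter probe set) and Abca14 (401 ± 283). Abca2, an endosomal lipid transporter, had 159.7, 194 and 839, above the floor in replicate 3 alone. Abca4, a transporter of retinal photoreceptors, had 33.6 ± 17.3, Abca16 60.2 ± 13.9, Abca7 370.1 ± 65.1, Abca8a 521 ± 90.3 and Abca8b 312 ± 42.2. None of these last 5 was above the floor on any array. In the RefSeq gene order Abca8b, Abca8a, Abca9, Abca6 and Abca5 follow each other on chromosome 11, and Abca9 and Abca5 were the 2 of these 5 above the floor.

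In subfamily G, whose members work as dimers, 3 of 6 genes were above the floor, against 54.7% of all genes. Abcg2, the breast cancer resistance protein that exports drugs and urate, had 2558, 2205 and 1626 (2129.7 ± 471). Abcg4, a sterol transporter best known from brain, had 1249.6, 1174 and 1808 on 1 probe set and 985, 477 and 871 on the other, where replicate 2 was under the floor. Replicate 2 was the lowest on both. Both Abcg4 probe sets carry the suffix _s_at, which marks probes that can match more than 1 transcript. Abcg1, which passes cholesterol to high-density lipoprotein, had 663, 831 and 607 on MOE430A, around the floor, and 287, 403 and 935 on MOE430B. Abcg3, a rodent gene, had 532, 729 and 1131 on its brighter probe set, with replicate 1 under the floor.

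Abcg5 and Abcg8 together form the sterol pump of liver and intestine and lie beside each other on chromosome 17. Abcg8 had 1232, 1518 and 1121 and was above the floor on all 3 arrays, while Abcg5 had 158, 539 and 586 and was above it on none. In the RefSeq promoter table (GRCm38.p6) their starts face away from each other, 109 bases apart (chr17:84683012-84683120, plus strand). For Abcg8 the first of 2 starts given there was used. The stretch between these starts is shown because both genes share it. The 1 match to the TATA box, read on the other strand, is in capitals. RefSeq annotates the whole stretch as part of the Abcg8 gene.
Abcg5 to Abcg8: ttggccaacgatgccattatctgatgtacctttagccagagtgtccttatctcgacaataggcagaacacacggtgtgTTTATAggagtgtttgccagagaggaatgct
The RNA signals of the dimer's partners thus lay on different sides of the floor, by 1 probe set each. How brightly each probe set hybridizes is not known, and no protein was measured.

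Genes that regulate or receive sterol efflux were above the floor in 8 of 14 measured cases (57.1%, near the 54.7% of all genes). The nuclear receptor partner Rxra had 1888, 2193 and 2105, and the sterol-sensing transcription factor gene Srebf2 had 3334 ± 985. Nr1h3, which encodes the oxysterol receptor LXR alpha that induces Abca1 and Abcg1, had 587, 779.5 and 602 and was under the floor in replicates 1 and 3. Named from the list for their signal were the lysosomal cholesterol carrier Npc2 (32673 ± 9210.3), the transcription factor gene Srebf1 (4682 ± 477) and the phospholipid transfer protein Pltp (4294 ± 1355). Apoe, a lipid acceptor, had 655, 1134 and 1419.6, and the acceptor Apoa1, a liver and gut product, had 128 ± 12.6.

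LXR, bound to RXR, is known to act on Abca1 through a pair of half-sites upstream of the gene. The 300-base windows around the RefSeq starts were searched on both strands for the letters TNACC repeated after a spacer of 5 bases, a pattern chosen after the Abca1 window had been read. Of 35 ABC genes with a window 1 held a match, Abca1, where the choice of pattern had fixed it beforehand. Of 14368 measured genes 81 held a match (0.564%). The 93 bases before this Abca1 start are annotated as part of the gene, so the match lies within it. The 30 bases around the match (chr4:53159940-53159969, minus strand, GRCm38.p6) are shown with its letters, at positions -67 to -53 from the start, in capitals.
Abca1: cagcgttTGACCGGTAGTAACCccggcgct
A match is a description of letters, not a measured binding site, and no test links it to the receptor signals.

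The drug, phospholipid, bile salt and peptide transporters of subfamily B were above the floor in 2 of 5 genes, against 54.7% of all. Abcb4, the phosphatidylcholine transporter of the bile canaliculus, had 2497, 2384 and 3670.1 (2851 ± 712), with replicate 3 highest. Abcb1b, a P-glycoprotein that exports drugs, had 2156, 2978 and 2387 on MOE430B, above the floor and, on all 3 arrays, above the highest tryptophan control. Its MOE430A probe set had 298, 118 and 42.2, under the floor throughout, so the 2 probe sets of Abcb1b did not give the same status. The other mouse P-glycoprotein gene, Abcb1a, had 461, 272 and 398 on its brighter probe set and 82.2, 15.7 and 119 on the dimmer. Abcb1a, Abcb1b and Abcb4 follow each other on chromosome 5 and are close relatives, and whether their probe sets pick up each other's transcripts was not tested. The bile salt pump Abcb11 (316 ± 211) and the lysosomal peptide transporter Abcb9 (457 ± 89.3 on the brightest of 3 probe sets) were above the floor on no array.

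Subfamily C, which exports glutathione and glucuronide conjugates and nucleotides and holds the sulfonylurea receptors, was above the floor in 2 of 10 genes. Of all genes 54.7% were above it. Abcc1, the multidrug resistance protein that exports glutathione conjugates and leukotriene C4, had 2446, 1490.4 and 1816 on 1 probe set and 2038, 1577 and 1903 on the other. Both Abcc1 probe sets were above the floor, and on both replicate 1 was highest and replicate 2 lowest. Abcc5, which exports cyclic nucleotides and nucleotide analogues, had 10 probe sets over both array types. Its brightest had 3363, 2997 and 3767, the next 2751, 2947 and 3015, and another 1349.7, 2428 and 2278. On MOE430A 4 of 7 Abcc5 probe sets were above the floor and replicate 1 was the lowest on 6 of 7. It was the lowest on 3422 of all 9600 MOE430A probe sets above the floor. The remaining 3 of the 7 had means of 435 to 945, and the 3 on MOE430B had means of 166 to 1079 with none above the floor.

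The other 8 subfamily C genes were not above the floor. Abcc4, an exporter of cyclic nucleotides and prostaglandins, had 2296, 705 and 1141 on MOE430B. Abcc10 had 2117, 572 and 1045 there and 64.4 ± 26.7 on MOE430A. On these MOE430B probe sets of both genes replicate 1 lay highest and replicate 2 lowest, under the floor, while on the MOE430A probe set of Abcc10 replicate 1 was the lowest. Abcc9, the sulfonylurea receptor of vascular potassium channels, had 701, 985 and 1101 on its brighter MOE430B probe set, with replicate 1 under the floor. Abcc8, the receptor of pancreatic beta cells, had 217, 188 and 1168 on MOE430B and 318 ± 139.5 on MOE430A. Abcc3 had 457, 614 and 625, Abcc12 227, 673 and 1014 on its brighter probe set, Abcc2 158 ± 35.8 and Abcc6 53.6 ± 18.1. Abcc2, Abcc3 and Abcc6 belong mainly to liver, gut and kidney, and none of their probe sets was above the floor on any array.

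Genes that supply glutathione and respond to toxins were above the floor in 9 of 11 cases (81.8%, against 54.7% of all genes). The glutathione transferase Gstp1 had 22606, 13697 and 14128, Gsta4 had 4786 ± 1472 and Gstm1 had 4686 ± 648. The catalytic and modifier subunits of glutathione synthesis, Gclc and Gclm, had 1329, 1249 and 808 and 3582, 1888 and 2164. The xenobiotic receptors Nr1i2 (453 ± 279.6) and Nr1i3 (103 ± 61.5), which induce drug exporters in liver, were the 2 not above it.

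**Figure D2:**
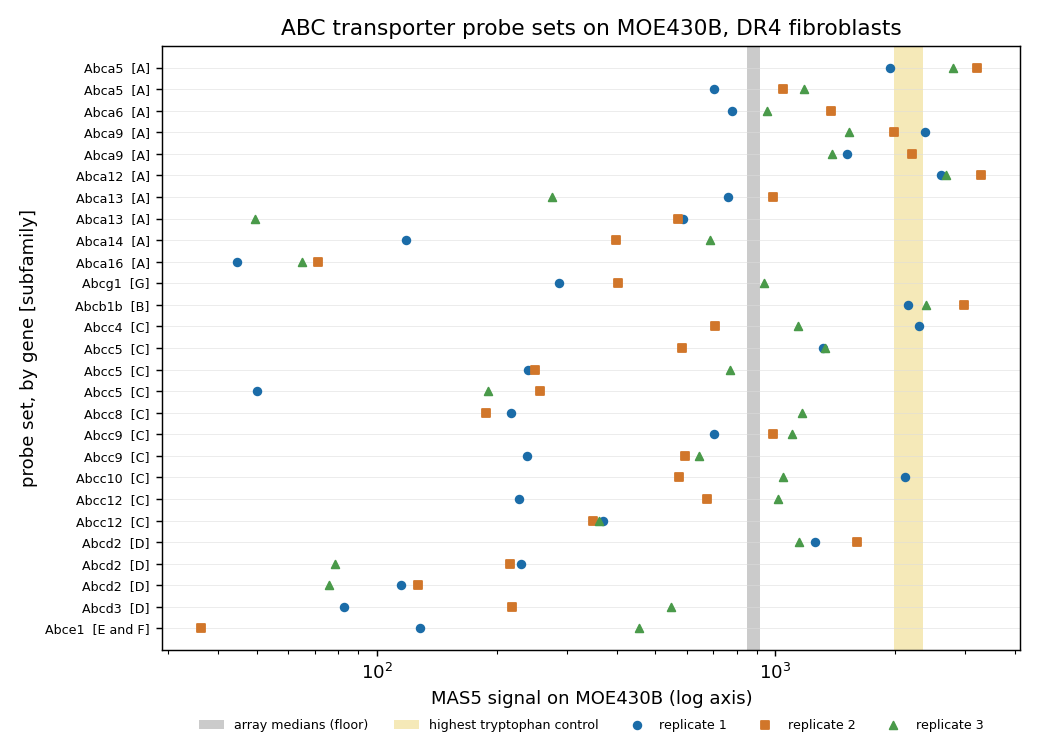
Signal of the 27 ABC transporter probe sets on the 3 MOE430B arrays (log axis), drawn as for MOE430A. The yellow band of the tryptophan control (1989 to 2348) lies above the grey floor here; 6 probe sets are above the floor on all 3 arrays, and those of Abca12 and Abcb1b are also above the control of their own array on all 3.

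Of the mitochondrial subfamily B genes, 1 of 3 was above the floor, against 54.7% of all genes. Abcb8, an inner membrane transporter linked to iron export, had 3172, 1599.8 and 1899 (2224 ± 835) on 1 probe set, with replicate 1 highest, and 28.3, 46.9 and 21.3 on the other. Those 2 probe sets therefore lay far apart, on opposite sides of the floor. Abcb10, which supports haem synthesis, had 673, 1065 and 751 and 853, 688 and 392 on its 2 brighter probe sets, each above the floor on 2 of 3 arrays. Abcb6, a porphyrin transporter, had 754, 479 and 402, above it in replicate 1 alone. Genes of haem and iron-sulfur cluster synthesis were above the floor in 6 of 9 cases (66.7%, against 54.7% of all genes). Among them were the scaffold Iscu at 8703 ± 389, ferrochelatase Fech at 4815 ± 857 and, on MOE430B, the glutaredoxin Glrx5 at 30079.8 ± 3364. The mitochondrial iron importer Slc25a37, a partner of Abcb10 in red cell precursors, had 586, 386 and 709 and was under it.

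In subfamily D, 2 of 3 genes were above the floor, against 54.7% of all genes. Abcd3, which carries branched fatty acids and bile acid precursors into peroxisomes, had 1798, 2298 and 2174 (2090.2 ± 260.1) on MOE430A and 82.8, 218 and 549 on MOE430B. Abcd2, a peroxisomal carrier of very long chain fatty acids, had 1262, 1605 and 1148 on 1 of its 3 MOE430B probe sets. That signal was above the floor and below the tryptophan control, and its other 3 probe sets had means of 32.3 to 175. Abcd4, which passes cobalamin out of lysosomes, had 294 ± 125 and 96.6 ± 16.4. Of the peroxisome list 7 of 7 measured genes were above the floor, against 54.7% of all genes. Among them were the thiolase Acaa1a (6344 ± 1197), the peroxin Pex14 (2621, 2791 and 2868) and the beta-oxidation enzyme Hsd17b4 (2706 ± 208). Pex19, the chaperone that brings Abcd3 to the peroxisome, had 1563, 1846 and 1995. Ppara was counted through a MOE430B probe set, while its MOE430A probe set had 61 ± 15.7. Measured against the highest tryptophan control, 5 of the 7 were above, without Pex3 and Ppara.

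The 4 genes of subfamilies E and F were all above the floor on MOE430A. Of all genes 54.7% were above it on either array type. Abce1, which splits ribosomes into subunits after translation ends, had 3575, 3034 and 2275 on 1 probe set and 1130.3, 1298 and 1163 on the other. Abcf1, which binds the initiation factor eIF2 and promotes translation initiation, had 4238, 3104 and 3850.2 on its brightest probe set and 2266, 1825 and 2042 on the next. Abcf2 had 3411, 2537 and 2997, and Abcf3 had 1484, 1378 and 1285. These 6 were the probe sets of the group above the floor, and the other 8 had means of 95.7 to 688. Replicate 2 was the lowest on 5 of 6 Abcf1 probe sets, against 2936 of all 9600 MOE430A probe sets above the floor. Both bright Abcf1 probe sets and the bright Abce1 one carry the suffix _s_at, which marks probes that can match more than 1 transcript, and without such probe sets Abcf1 had none above the floor.

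Partners in ribosome recycling and translation control were above the floor in 6 of 8 cases (75%, against 54.7% of all genes). The eIF2 subunits Eif2s2 and Eif2s3x had 15939.9, 15072 and 11399 and 10290.4, 8399.8 and 7311. The Gcn2 activator Gcn1 had 5877, 3886 and 3382 on MOE430B. Replicate 1 was highest and replicate 3 lowest for these 3 genes and on the brighter Abce1 probe set, an order picked after the values were seen. On the dimmer Abce1 probe set (1130.3, 1298 and 1163) replicate 1 was the lowest. Hbs1l (3441, 2620 and 2744) and Eif2ak4 (72.1, 345 and 293) of the same list had other orders. Whether Abce1 varies with these genes was not tested. The ribosome rescue factor Pelo, which works with Abce1, had 999, 733 and 509, above the floor in 2 replicates. Among ABC proteins with other symbols and channel partners, 4 of 6 genes were above the floor (66.7%, against 54.7% of all genes). The peptide transporters Tap1 and Tap2, which load class I antigens, had 1774 ± 124 and 1172 ± 58.6, and their partner Tapbp had 6284 ± 839. The Tap1 value is its brightest of 4 probe sets, of which 1 was above the floor. The channel gene Kcnj11 had 42532, 45240 and 33381 on MOE430B but 355, 19.7 and 497 on MOE430A. The chloride channel Cftr, 69.7 ± 91.4, was not above the floor.

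Probe sets of 1 gene often did not share a status. On MOE430A 8 of 15 ABC genes with several probe sets had some above and some not above the floor, against 43.7% of all such genes. On MOE430B 2 of 7 did, against 53.5%. The 8 were Abca1, Abca3, Abcb8, Abcc5, Abcf1, Abcf2, Abcf3 and Abcg4. Abcf2 is an example, with 95.7 ± 112 on its second probe set beside 2982 ± 437 on the first. A gene with many probe sets had more chances to be counted, which touches Abcc5 and Abcf1 most.

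Promoter sequence was compared between ABC genes above and not above the floor. RefSeq windows of 300 bases (250 before and 50 after the start, GRCm38.p6) were found for 35 of the 45 genes, and the first start was used where the table gave several. ABC genes above the floor had a median of 24 CpG dinucleotides in the window (n = 15) and those not above it 12 (n = 20). Over all measured genes with a window the medians were 21 (n = 8037) and 9 (n = 6331). The ABC genes thus differed by status in the same direction as genes at large. The ranges overlapped widely, from 2 (Abca9) to 45 (Abcd3) above the floor and from 1 (Abcc2) to 41 (Abcc4) not above it. The GC box GGGCGG, which itself holds a CpG, lay on either strand in 17 of 35 ABC windows (48.6%, against 54.1% of all), and the TATA box TATAAA in 6 of 35 (17.1%, against 9.86%). Abcg5 and Abcg8 are 2 of these 6 and share the 1 match printed above.

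The 250 bases before the start are printed for the genes with the most and the fewest CpG dinucleotides of each status, among the 10 genes whose stretch overlaps no annotated gene, their own included. CpG dinucleotides are in capitals. Abcd3 (chr3:121815303-121815552, minus strand, 34 CpG) and Abca12 (chr1:71414911-71415160, minus strand, 5 CpG) were above the floor. Abca2 (chr2:25428349-25428598, plus strand, 20 CpG) and Abcc2 (chr19:43782058-43782307, plus strand, 1 CpG) were not, so the 2 statuses overlap here too.
Abcd3: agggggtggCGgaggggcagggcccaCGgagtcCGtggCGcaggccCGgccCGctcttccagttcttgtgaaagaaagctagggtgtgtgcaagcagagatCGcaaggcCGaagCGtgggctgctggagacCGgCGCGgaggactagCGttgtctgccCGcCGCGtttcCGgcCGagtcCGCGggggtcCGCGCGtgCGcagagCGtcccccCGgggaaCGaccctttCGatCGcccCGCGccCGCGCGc
Abca12: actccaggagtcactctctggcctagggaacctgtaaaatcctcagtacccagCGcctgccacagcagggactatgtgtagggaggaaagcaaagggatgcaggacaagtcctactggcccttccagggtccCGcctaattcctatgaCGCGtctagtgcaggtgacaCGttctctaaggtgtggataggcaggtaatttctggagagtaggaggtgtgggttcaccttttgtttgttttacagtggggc
Abca2: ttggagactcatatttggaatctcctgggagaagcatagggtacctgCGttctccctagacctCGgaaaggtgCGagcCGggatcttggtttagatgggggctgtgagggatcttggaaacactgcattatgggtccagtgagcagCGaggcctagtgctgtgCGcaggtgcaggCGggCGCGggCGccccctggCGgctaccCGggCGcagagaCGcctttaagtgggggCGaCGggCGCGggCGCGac
Abcc2: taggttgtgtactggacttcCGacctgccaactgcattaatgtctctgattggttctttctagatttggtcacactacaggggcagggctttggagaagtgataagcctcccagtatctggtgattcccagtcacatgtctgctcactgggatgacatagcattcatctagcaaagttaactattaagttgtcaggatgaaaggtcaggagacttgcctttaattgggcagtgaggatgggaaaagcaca

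**Figure D3:**
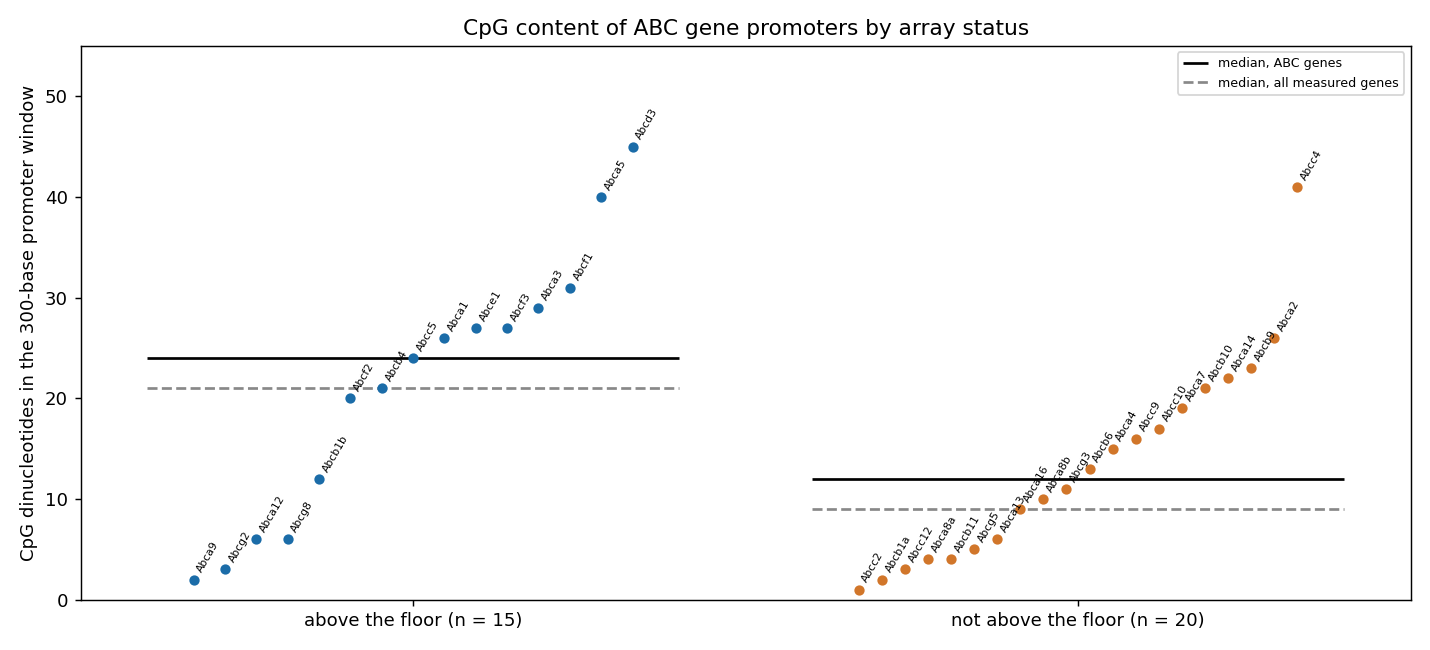
Number of CpG dinucleotides in the 300-base promoter window of each ABC gene (points, named), for the 15 genes above the floor and the 20 not above it. The solid lines are the medians of the ABC genes (24 and 12) and the dashed lines those of all measured genes (21 and 9); the 2 sets of points overlap.

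The spread between replicates, which is the error of this control profile, had a median close to that of other genes when all 3 arrays were used. ABC probe sets above the floor had a median SD of 0.22 on the log2(signal + 16) scale on MOE430A (n = 20) and 0.28 on MOE430B (n = 6), against 0.24 and 0.28 over all probe sets above it. Replicate 2 was the highest on 5 of the 6 MOE430B probe sets, against 2668 of all 8384 above the floor there. The 6 include both Abca9 probe sets, so they are not independent. Without replicate 2 their median SD was 0.10, against 0.24 over all probe sets above the floor. On MOE430A without replicate 3 the members had 0.23, against 0.19 over all. The largest SD was that of Abcb8, at 0.51, followed by Abca1 at 0.48 and 1 Abcc5 probe set at 0.46. Those of Abcc1, Abcb4 and Abcg4 followed at 0.36, 0.34 and 0.33 on their widest probe sets. On MOE430B the widest was Abca5 at 0.37, then Abca9 at 0.35 and 0.31 and Abcd2 at 0.25. None of the 20 and none of the 6 differed more than 2-fold between its highest and lowest array. Of all probe sets above the floor, 7.57% and 13.3% did. With so few members, counts of 0 do not show a smaller spread than in other genes. The largest ratios of highest to lowest array were 1.98 for Abcb8 and 1.88 for Abca1, close to the cut.

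Replicate 1 was then set against replicates 2 and 3, because the labels record another cell number and RNA concentration for it. The test was limma on log2(signal + 16), a scale that understates the change of dim genes, over all probe sets whose mean log2 signal exceeded the mean log2 floor. Of the ABC members, 24 of 65 and 12 of 27 were bright enough to be tested. After Benjamini-Hochberg adjustment limma called 0 of 24 on MOE430A, where it called 0.705% of all 11066 tested, and 0 of 12 on MOE430B, where it called 0% of 10594. At an unadjusted p under 0.05 the counts were 4 of 24 (8.13% of all tested) and 2 of 12 (7.24%). Comparing 1 array with 2 leaves 1 residual degree of freedom, so these counts do not show that replicate 1 was alike. To this limma adds prior degrees of freedom from the spread of all tested probe sets, 25.6 on MOE430A and 3.49 on MOE430B. An SE from limma is therefore not a probe set's own error, and it is not comparable between the array types.

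The smallest limma p-values on MOE430A belonged to Abcc5, Abcb8, Abca1 and a second Abcc5 probe set. The first Abcc5 probe set, at 499, 962 and 1375, had a log2 difference of -1.18 (SE 0.38, adjusted p = 0.192), replicate 1 minus the mean of the others. Abcb8 had 0.86 (SE 0.37, adjusted p = 0.493), Abca1 -0.80 (SE 0.37, adjusted p = 0.555) and the second Abcc5 probe set -0.79 (SE 0.37, adjusted p = 0.56). Abcg3 came next with -0.76 (SE 0.38, adjusted p = 0.641). None passed, and the brightest Abcc5 probe set had a difference of 0.00 (SE 0.37). On MOE430B the smallest were Abcc4 at 1.34 (SE 0.46, adjusted p = 0.667) and Abcc10 at 1.43 (SE 0.50, adjusted p = 0.671), followed by both Abca5 probe sets at -0.65 and -0.62 and Abcc9 at -0.56. The median difference of the members was -0.10 on MOE430A and -0.20 on MOE430B, against -0.01 and 0.03 over all probe sets tested. Members higher in replicate 1 numbered 11 of 24 and 4 of 12, and the same count was not made over all probe sets tested. On MOE430A replicates 1 and 2 shared a scan day and fluidics station, and within that day the members' median difference was 0.08, against -0.01 over all. That value sets 1 array against 1 and is the same as leaving out replicate 3. The effects of scan day, of station and of replicate 3 therefore cannot be told apart. On MOE430B replicate 1 alone was on its station, and the effects of station and of replicate cannot be told apart there. Without replicate 2 the members' median difference on MOE430B was -0.03, and without replicate 3 it was -0.40, against 0.02 and 0.01 over all probe sets tested.

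**Figure D4:**
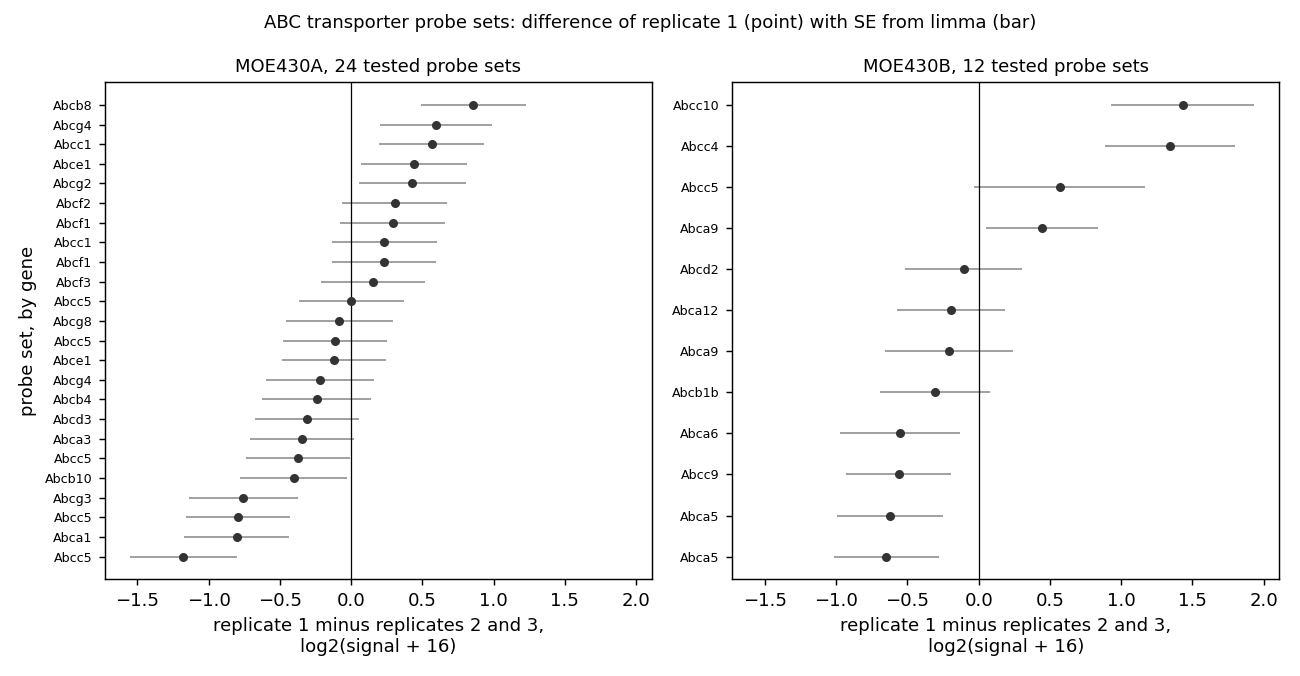
Difference of replicate 1 from the mean of replicates 2 and 3 on the log2(signal + 16) scale for the 24 MOE430A and 12 MOE430B ABC probe sets tested, a row per probe set. Points are the differences and bars the limma SE, which borrows from the spread of all tested probe sets of the array type. The range is -1.18 (Abcc5) to 0.86 (Abcb8) on MOE430A and -0.65 (Abca5) to 1.43 (Abcc10) on MOE430B, with no probe set past the threshold.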

How the data were processed

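The authors deposited 1 MAS5 signal intensity per probe set and array. The submitters' processing notes name MAS5, without version or settings. The mean signal without the top and bottom 2% was 1499.79 to 1499.87 on the 6 arrays, so each had been scaled to a common target. Instrument records gave scan day and fluidics station. Gene symbols were those of the platform annotation, checked against RefSeq, and 64 control probe sets per array type were left out. The array types were kept apart. Replicate 1 was tested against replicates 2 and 3 with limma (3.58.1, R 4.3.3), lmFit and eBayes on log2(signal + 16), at an adjusted p of 0.05 over all probe sets tested on the array type, and the test was tried on simulated data. The number of arrays limits the precision. Alternatives were other floors, pseudocounts, filters, priors and normalizations, and leaving out each replicate. The members and gene lists were chosen with earlier results of these data known. The rule for named genes took, per role group, up to 4 of the brightest above the floor and up to 2 others, the 6 widest and the 5 with the smallest p per array type, up to 6 with disagreeing probe sets, and the 3 brightest of each partner list. Every other gene whose array values or sequence are given was named after its values were seen.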

Additional observations from a re-analysis of the deposited data

How the results depend on the processing

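The count of ABC probe sets above the floor moved with the floor. With the 75th percentile it was 8 on MOE430A and 2 on MOE430B (12.3% and 7.41%, against 20.7% and 17.7% of all probe sets). With a fixed signal of 200 it was 40 and 18 (61.5% and 66.7%, against 68% and 70%). With the highest tryptophan control it was 20 and 2 (30.8% and 7.41%, against 41.5% and 16.2%). Without probe sets ending in _x_at, _s_at or _a_at it was 11 of 44 (25%, against 38.7%) on MOE430A. On MOE430B it was 6 of 23 (26.1%, against 36.2%). Leaving out 1 replicate gave 21 to 24 on MOE430A (32.3% to 36.9%, against 44.6% to 45% of all). On MOE430B it gave 6 to 9 (22.2% to 33.3%, against 41% to 41.5%). By genes, where leaving out a replicate had not been planned, it gave 20 to 23 (44.4% to 51.1%, against 57.4% to 58.3%). With 1 probe set per gene, 17 genes were above the floor (37.8%, against 49.9% of all genes). This was the brightest on MOE430A or, for genes without one there, on MOE430B. Abcb1b and Abcd2 were lost because their MOE430A probe sets stood for them. With the tryptophan control, added after the data were seen, 16 genes were above it (35.6%, against 44%). The calls over all MOE430A probe sets were 78 as reported, 0 without the filter, 0 with quantile normalization and 164 with an eBayes trend, but limma called 0 ABC probe sets under each of these and under both pseudocounts, on either array type. The median SD of ABC probe sets ranged from 0.17 to 0.23 on MOE430A and from 0.10 to 0.29 on MOE430B when a replicate was left out. No paired analysis was possible because the 2 array types hold different probe sets of the same RNA and no level was compared between them. Among all tested members, leaving out replicate 2 turned the sign of 2 of 24 on MOE430A and 3 of 12 on MOE430B, and leaving out replicate 3 that of 2 and 0. On MOE430B 2 of 27 ABC probe sets lay above the tryptophan control on all arrays, which limits what can be read from the others. The causes were not tested.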
